A study of Mus musculus with 8 samples.

Results

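The complement genes described here were the 9 rows of the deposited count table, of 53801 in all, that carry the symbols C1ra, C1s1, C2, C3, C4b, Cfb, Cfd, Serping1 and C3ar1. They were measured by RNA sequencing of stromal cells sorted from MO5 melanomas, which grow from B16 mouse melanoma cells that express ovalbumin. All tumours grew in C57Bl/6 mice carrying a BAC transgene in which Adam12 sequences drive Cre and GFP, so both groups held the transgene and the tumour, and per the study's methods tumours were implanted under the skin of mice aged 8–12 weeks. Cells that stained for PDPN and PDGFRα and lacked CD45 and CD31 were divided into GFP+ cells, called ADAM12+, and GFP- cells, called ADAM12–, with 4 libraries in each group. GFP reports the activity of the transgene rather than ADAM12 protein, and the labels enter the reporter state under genotype. By the study's account the replicates count mice. Whether a GFP+ and a GFP- library with the same number came from the same mouse is not stated in the sources used here.

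Complement is a set of plasma proteins that mark surfaces for removal and release small peptides that attract leukocytes. In the classical pathway C1q carries the proteases C1r and C1s. C1r activates C1s, C1s cuts C4 and C2, and the product cuts C3, whose fragments coat the target. Factor B and factor D build the alternative pathway's amplification loop on C3, the C1 inhibitor encoded by Serping1 blocks C1r and C1s, and C3ar1 encodes the receptor for the C3a peptide. Most of these proteins come from liver, but fibroblasts are known to make several of them, and C3a receptors are best known on macrophages and other myeloid cells.

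Between 883144 and 17535099 reads were assigned to genes in the GFP- libraries and between 8776925 and 31666734 in the GFP+ libraries. GFP- replicate 3 was the shallowest, and 3 of its reads correspond to 3.397 CPM (a gene's reads divided by the library's total and scaled up to a common total). Adam12 averaged 1362 ± 357 normalised counts in GFP- cells and 2302 ± 484 in GFP+ cells (SD, n = 4 each). The log2 fold change was 0.75 ± 0.24 (SE), with an adjusted p of 0.0266 in DESeq2 but 0.0643 in edgeR's quasi-likelihood test. All 10 stromal markers had reads in all 8 libraries. This alone does not establish the sorted identity, since Ptprc, which encodes the excluded CD45, had reads in all 8 too. The stromal sum was lower in GFP- libraries, at 27790 to 54080 CPM, than in GFP+ libraries, at 63170 to 64030. Transcripts of 11 melanocyte genes, which the tumour cells express, summed to 2628 to 8130 CPM in GFP- and 371 to 1119 in GFP+ libraries. Their part in the differences below was not tested.

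Of the 9 genes, 4 lie on chromosome 17 of GRCm38, namely C3 (57203970 to 57228136), C4b (34728380 to 34743882), Cfb (34856374 to 34862518) and C2 (34862604 to 34898265), all on the minus strand. Chromosome 6 holds C3ar1 (122847138 to 122856161, minus strand), C1ra (124512405 to 124523443, plus strand) and C1s1 (124530345 to 124542359, minus strand). Serping1 is on chromosome 2 (84765387 to 84775444, minus strand) and Cfd on chromosome 10 (79890853 to 79892655, plus strand). All are annotated as protein coding, and every value below counts reads on their exons.

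RefSeq promoter windows (GRCm38.p6, 250 bases before to 50 bases after the annotated start) were matched for 5 of the 9 genes, and 4 are shown so that the letters of 3 genes that were higher in GFP+ cells can be set beside those of the receptor, which was not called. Capitals mark matches on either strand to the C/EBP letters TTNCNNAA, to the STAT letters TTCNNNGAA (only the last run in C1ra) or to the AP-1 letters TGANTCA (the run in C3ar1). For C1ra the RefSeq start lies 216 bases downstream of the gene start given above, so its window mostly covers bases after that start, and for C3ar1 it lies 4 bases downstream.
C3, chr17:57228087-57228386, minus strand: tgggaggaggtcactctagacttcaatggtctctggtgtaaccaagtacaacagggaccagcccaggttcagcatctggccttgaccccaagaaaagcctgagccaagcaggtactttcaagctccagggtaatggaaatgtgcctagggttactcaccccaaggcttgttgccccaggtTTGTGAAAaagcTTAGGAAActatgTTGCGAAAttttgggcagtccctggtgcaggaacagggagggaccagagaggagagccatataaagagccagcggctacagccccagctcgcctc
C1s1, chr6:124542310-124542609, minus strand: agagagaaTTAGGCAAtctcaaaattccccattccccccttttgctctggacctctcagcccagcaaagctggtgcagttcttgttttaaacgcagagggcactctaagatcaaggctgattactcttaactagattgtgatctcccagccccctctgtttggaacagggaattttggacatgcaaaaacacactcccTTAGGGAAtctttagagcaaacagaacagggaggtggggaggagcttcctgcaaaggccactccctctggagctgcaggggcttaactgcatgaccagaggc
C1ra, chr6:124512371-124512670, plus strand: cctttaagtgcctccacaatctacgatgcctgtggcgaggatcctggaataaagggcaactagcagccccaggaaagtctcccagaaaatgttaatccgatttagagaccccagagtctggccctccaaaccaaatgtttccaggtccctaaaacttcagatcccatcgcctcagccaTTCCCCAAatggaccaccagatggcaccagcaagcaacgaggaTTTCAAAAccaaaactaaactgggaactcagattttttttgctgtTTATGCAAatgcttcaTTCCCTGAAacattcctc
C3ar1, chr6:122856108-122856407, minus strand: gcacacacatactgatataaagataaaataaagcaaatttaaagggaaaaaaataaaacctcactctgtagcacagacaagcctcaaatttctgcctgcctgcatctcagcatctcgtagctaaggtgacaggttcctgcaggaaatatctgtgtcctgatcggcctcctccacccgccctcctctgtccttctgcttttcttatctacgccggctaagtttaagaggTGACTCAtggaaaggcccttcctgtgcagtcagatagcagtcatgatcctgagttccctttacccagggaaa
The C/EBP letters occurred 3 times in the window of C3, where all lie shortly before the start, 3 times in that of C1ra and 2 times in the C1s1 window shown. A second RefSeq window of C1s1, with its start 38 bases downstream, held them only 1 time. The letters are short, and 40.7% of the 27025 promoter windows of all genes held them. STAT letters stood in 8.47% of all windows and AP-1 letters in 7.93%. Letters for NF-kB (GGGANNTTC, 3.87% of all windows) and for the interferon response (GAAANNGAA, 8.57%) were found in no window of the 5 genes, which says only that these letters are absent from these stretches.

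Between GFP+ and GFP- cells, 5 of the 9 complement genes were higher in GFP+ cells, C1ra, C1s1, C4b, C3 and Serping1, by 1.52 to 2.45 times, and none was lower. C3ar1 was tested and not called, and C2, Cfb and Cfd had so few reads that the filter on low means left them without an adjusted p. Calls rest on DESeq2 with Benjamini-Hochberg adjustment over all genes at 0.05, by which 4.66% of the 15283 genes with an adjusted p were higher and 4.76% lower. The same 5 genes passed edgeR's quasi-likelihood test, by which 2.83% of genes were higher. In all 5 the lowest GFP+ library lay above the highest GFP- library, a pattern seen in 6.37% of genes. These differences are relative to all genes in a library, and none of the 5 passed the test when libraries were scaled to the stromal markers instead, as given further on.

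**Figure D1:**
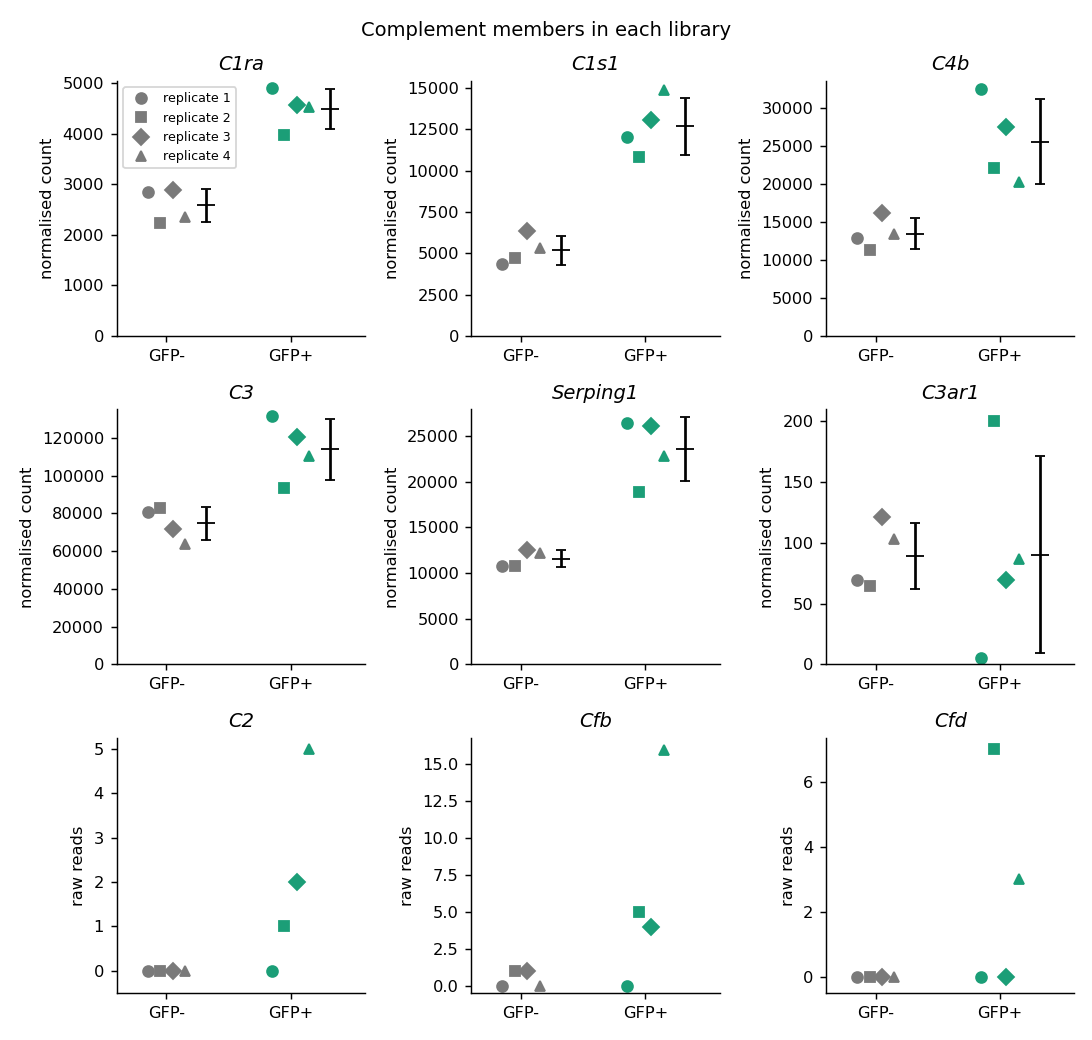
Each panel plots a complement gene in the 4 GFP- libraries (grey) and the 4 GFP+ libraries (green), with symbols for the replicate number and linear axes. The upper 6 panels give normalised counts with mean and SD in black, and the lower 3 give raw reads. C1ra, C1s1, C4b, C3 and Serping1 do not overlap between groups under this all-gene scaling, C3ar1 does, and C2, Cfb and Cfd never exceed 16 reads.

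Both proteases of the C1 complex were higher in GFP+ cells. C1s1, which encodes the C1s protease that cuts C4 and C2, had 4355, 4738, 6373 and 5296 normalised counts in GFP- replicates 1 to 4 and 12030, 10800, 13040 and 14880 in the GFP+ replicates. Every GFP+ library was well above the GFP- range, with no library of either group near the other. The means were 5191 ± 878 and 12690 ± 1724 (SD, n = 4 each). This is a log2 difference of 1.29 ± 0.17 (SE), and the adjusted p was 4.40e-11 in DESeq2 and 0.00115 in edgeR. C1ra, which encodes C1r, the protease that activates C1s, had 2850, 2242, 2890 and 2352 normalised counts in GFP- libraries and 4912, 3969, 4577 and 4522 in GFP+ libraries. The groups again stood apart, although by less than for C1s1. Its mean went from 2584 ± 334 to 4495 ± 391, a log2 fold change of 0.81 ± 0.15 with an adjusted p of 8.01e-06 in DESeq2 and 0.00568 in edgeR. In transcript sequence, 48.0% of the 50-base windows of C1ra also occur in its paralog C1rb, and 21.9% of those of C1s1 in C1s2, so reads from these stretches may be lost or split in counting.

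Downstream of these proteases, C4b and C3 were also higher. C4b encodes the complement component C4, and its normalised counts were 12870, 11320, 16240 and 13370 in GFP- libraries and 32480, 22060, 27500 and 20290 in GFP+ libraries. The GFP+ values spread more widely than the GFP- values but all exceeded them. Means of 13450 ± 2055 and 25580 ± 5529 gave a log2 fold change of 0.93 ± 0.20, with an adjusted p of 1.12e-04 in DESeq2 and 0.00833 in edgeR. Of the 50-base windows of C4b, 34.6% are shared with its paralog C4a, which makes the division of reads between the pair uncertain.

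C3, the protein on which all complement pathways converge, had the most reads of the 9 genes. It was measured at 80820, 82860, 71800 and 63600 normalised counts in GFP- replicates 1 to 4 and at 131600, 93350, 120300 and 110600 in the GFP+ replicates. GFP+ replicate 2 came closest to the GFP- range, and the others lay further above it. The means were 74770 ± 8862 and 114000 ± 16210, and the log2 fold change of 0.61 ± 0.16 was the smallest of the 5, with an adjusted p of 0.0039 in DESeq2 and 0.0407 in edgeR.

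Serping1, encoding the C1 inhibitor, rose alongside the proteases that it inhibits. GFP- libraries held 10760, 10790, 12510 and 12220 normalised counts, a narrow range, and GFP+ libraries held 26450, 18910, 26070 and 22820. The means were 11570 ± 927 and 23560 ± 3500, a log2 fold change of 1.03 ± 0.16 with an adjusted p of 7.02e-09 in DESeq2 and 0.00175 in edgeR. GFP+ replicate 2 was the lowest GFP+ library for Serping1, C1ra, C1s1 and C3, and replicate 4 for C4b.

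Ratios within a library do not depend on its scaling, and they are given as descriptions with no test. Serping1 to the sum of C1ra and C1s1 was 1.497 ± 0.106 in GFP- and 1.374 ± 0.177 in GFP+ libraries, with overlapping ranges. C4b to C3 was 0.183 ± 0.042 and 0.224 ± 0.028, again overlapping. C1s1 to C1ra, a ratio chosen after its values were seen, was 1.53, 2.11, 2.21 and 2.25 in GFP- libraries and 2.45, 2.72, 2.85 and 3.29 in GFP+ libraries. These last ranges did not overlap, and nothing is read from that, since the pair was picked for it.

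C2 and Cfb, which supply the protease parts of the classical and alternative C3 convertases, and Cfd, whose product cuts factor B, were at or near 0 in all libraries. C2 had no read in any GFP- library and 0, 1, 2 and 5 reads in GFP+ replicates 1 to 4. Cfb, encoding factor B, had 0, 1, 1 and 0 reads in GFP- libraries and 0, 5, 4 and 16 in GFP+ libraries. Of the 25 GFP+ reads of Cfb, 16 came from replicate 4, and the direction depended on the weight of each library. Pooled reads gave a ratio of 6.29 per assigned read (exact 95% interval from 1.57 to 54.8, counting error alone), while mean normalised counts were 2.93 ± 5.39 in GFP- and 2.63 ± 2.23 in GFP+ libraries. With the filter on low means switched off, the DESeq2 adjusted p was 0.998 for each of C2, Cfb and Cfd.

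Cfd, encoding factor D, an adipocyte product also known as adipsin, had no read in GFP- libraries and 0, 7, 0 and 3 in GFP+ libraries. Adipoq, an adipocyte marker, had 4 reads in the GFP- and 21 in the GFP+ libraries, and the 7 adipocyte markers summed to 4.53 to 10.9 CPM in GFP- and 5.58 to 22.6 in GFP+ libraries. Of these 7 markers 3 had an adjusted p and 1 was called higher, against 4.66% of all genes. This was Plin4, which encodes a lipid droplet protein (61 and 736 reads, log2 fold change 2.69 ± 0.86, adjusted p 0.0241 in DESeq2 and 0.15 in edgeR). Plin1 had 3 and 87 reads and was not called (adjusted p 0.112 in DESeq2). Its groups did not overlap, as in 6.37% of genes, but its highest GFP- value (1.58 normalised counts) nearly met its lowest GFP+ value (1.67). Lep had 26 reads in GFP- libraries, all in 1 library, and 0 in GFP+ libraries, and Lipe had a log2 fold change of -0.21 and was not called. Their part in the Cfd reads was not tested. In GFP- libraries a count of 0 allows a level of up to 0.171 to 3.397 CPM, depending on depth. For Cfb and C2 the annotation adds a limit. Another gene model, Gm20547, lies on the same strand and shares 79.5% of the exon bases of Cfb and 42.8% of those of C2, and it had 0 reads in all libraries. Counting programs can leave reads that overlap several genes unassigned, and whether this took place here was not tested, so the near-zero values of Cfb and C2 need not mean absence of the transcripts.

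C3ar1 showed no detectable difference. It had 69.2, 64.5, 121 and 103 normalised counts in GFP- libraries and 5.56, 200, 69.1 and 86.6 in GFP+ libraries. GFP+ libraries took both the lowest and the highest value, and the groups overlapped throughout. The log2 fold change was 0.05 ± 0.72 with an adjusted p of 0.983 in DESeq2 and 0.978 in edgeR, and with an SE of this size a difference as large as that of C3 was not detectable.

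Macrophage transcripts also varied between libraries. In CPM, C3ar1 was 6.48, 6.35, 12.5 and 11.2 in GFP- and 0.456, 19.0, 6.06 and 8.15 in GFP+ libraries, and the sum of 11 macrophage markers was 212, 169, 615 and 273 in GFP- and 162, 469, 173 and 284 in GFP+ libraries. GFP- replicate 3 and GFP+ replicate 2 were highest in both, and GFP+ replicate 1 was lowest in both. For C3ar1, GFP- replicate 3 had only 11 reads, so its rank above GFP- replicate 4, with 196 reads, lies within counting error. The match was partial, since GFP+ replicate 1 had nearly the macrophage sum of GFP- replicate 2 and GFP+ replicate 3 but far less C3ar1. C1qa, C1qb and C1qc, the macrophage-made chains of C1q, summed to 129 CPM in GFP- replicate 3 and 92.1 in GFP+ replicate 2, against 19.8 to 52.9 in the others. Adgre1, which encodes the macrophage protein F4/80, had 50.2, 25.8, 209 and 167 normalised counts in GFP- and 97.2, 237, 51.5 and 129 in GFP+ libraries. Ptprc, encoding the CD45 used to exclude leukocytes in the sort, had 204, 137, 1703 and 453 in GFP- and 119, 1383, 146 and 707 in GFP+ libraries. Both were highest in GFP- replicate 3 or GFP+ replicate 2, and none of the 11 macrophage markers was called between groups by DESeq2 or edgeR. The part of such cells in the C3ar1 reads was not tested.

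**Figure D2:**
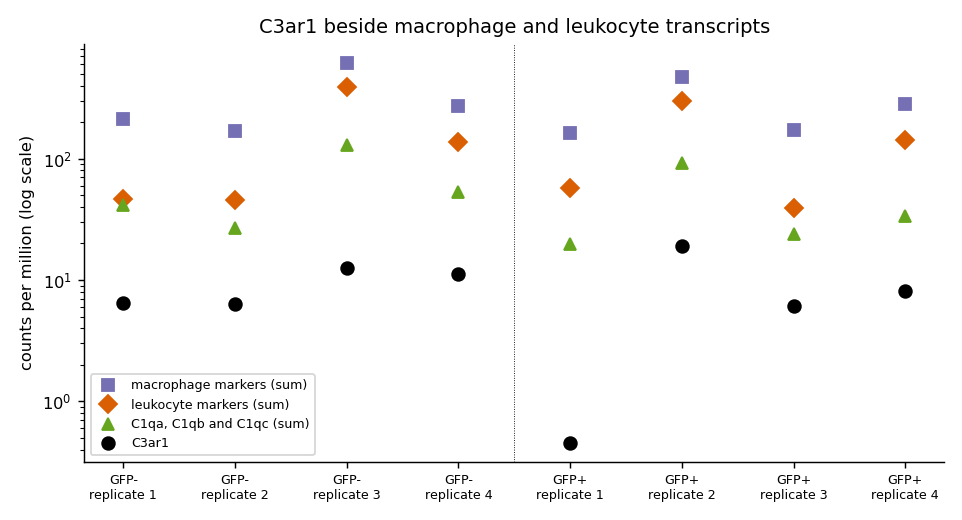
CPM on a log axis is plotted for each of the 8 libraries, for C3ar1 (black circles), the 3 C1q chains summed (green triangles), 10 leukocyte markers summed (orange diamonds) and 11 macrophage markers summed (purple squares). GFP- replicate 3 and GFP+ replicate 2 are the highest of their groups in all 4 series, and C3ar1 ranges from 0.456 to 19.0. The C3ar1 point of GFP- replicate 3 stands for 11 reads.

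Per kilobase of exon, the order of the levels in GFP- cells was C3 at 14540 normalised counts, Serping1 at 4977, C4b at 2362, C1s1 at 1659, C1ra at 867 and C3ar1 at 20.8. Averaged over both groups C3 ranked 13 and Serping1 27 of 29005 genes by this measure, so both belonged to the most abundant transcripts of these cells. In GFP+ cells the order was the same, with 22160 for C3, 10130 for Serping1, 4492 ± 971 for C4b, 4054 ± 551 for C1s1, 1508 for C1ra and 21.0 ± 18.8 for C3ar1, which was 12.5 without GFP+ replicate 2. There, the neighbours C4b and C1s1 overlapped between libraries and did not differ beyond their spread. In GFP- cells their ranges also met, with C4b at 1987 in replicate 2 and C1s1 at 2037 in replicate 3.

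Together, C1ra, C1s1, C3, C4b and Serping1 took 1.05, 1.10, 1.13 and 1.05% of all assigned reads in GFP- replicates 1 to 4 and 1.70, 1.42, 1.68 and 1.63% in the GFP+ replicates. C3 alone took 0.751 ± 0.052% and 1.02 ± 0.09%. GFP- replicate 4, at 1.05%, had the lowest stromal marker sum (27790 CPM) and the highest melanocyte sum (8130 CPM), and the part of tumour cell transcripts in these shares was not tested. In bulk RNA, a smaller part of cells that express these genes and less RNA per cell cannot be told apart.

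**Figure D3:**
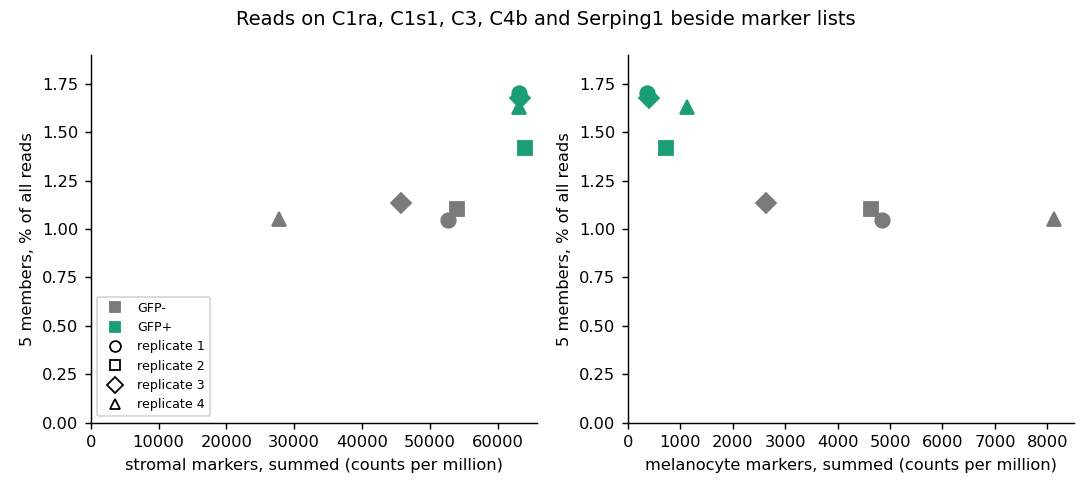
The percentage of all assigned reads on C1ra, C1s1, C3, C4b and Serping1 together is plotted for each library against the summed stromal markers (left) and the summed melanocyte markers (right), both in CPM, with GFP- libraries in grey and GFP+ libraries in green. Shares are 1.05 to 1.13% in GFP- and 1.42 to 1.70% in GFP+ libraries, and GFP- replicate 4 lies at the lowest stromal and highest melanocyte value.

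The calls depended on the scale on which the libraries were compared. The 10 stromal markers were themselves higher in GFP+ cells, 7 of 10 by the test, with a median log2 fold change of 0.90, within the range of the 5 complement genes. When the size factors were taken from these 10 markers alone, a setting chosen after seeing the data, C1s1 had a log2 fold change of 0.39 ± 0.26 (adjusted p = 0.222 in DESeq2), Serping1 0.10 ± 0.23, C4b 0.01 ± 0.24, and C1ra and C3 had -0.09 ± 0.20 and -0.28 ± 0.17 (adjusted p = 0.755 and 0.166 in DESeq2). None of the 9 genes was then called. Since the markers' own median lay within the range of the 5 genes, this scaling brings those genes near 0 by construction. It therefore cannot decide whether they differ relative to stromal transcripts. The markers also differed among themselves under it, with Col1a1 at -0.54 and Pdgfra at 0.44 (adjusted p = 0.0205 and 0.0435 in DESeq2). This scaling moved the median of all genes from -0.0082 to -0.91 and turned the calls over all genes from 712 higher and 727 lower to 88 higher (0.536% of 16417) and 6730 lower (41.0%). Measured from that median, the 5 genes lay 0.64 to 1.30 higher on the log2 scale, which restates the values under the all-gene scaling because the new factors moved all genes by about the same amount. Without GFP- replicate 4, the same scaling gave C1s1 a log2 fold change of 0.56 ± 0.22 with an adjusted p of 0.038 in DESeq2, the only call among the 9, and C3 one of -0.21 ± 0.13.

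**Figure D4:**
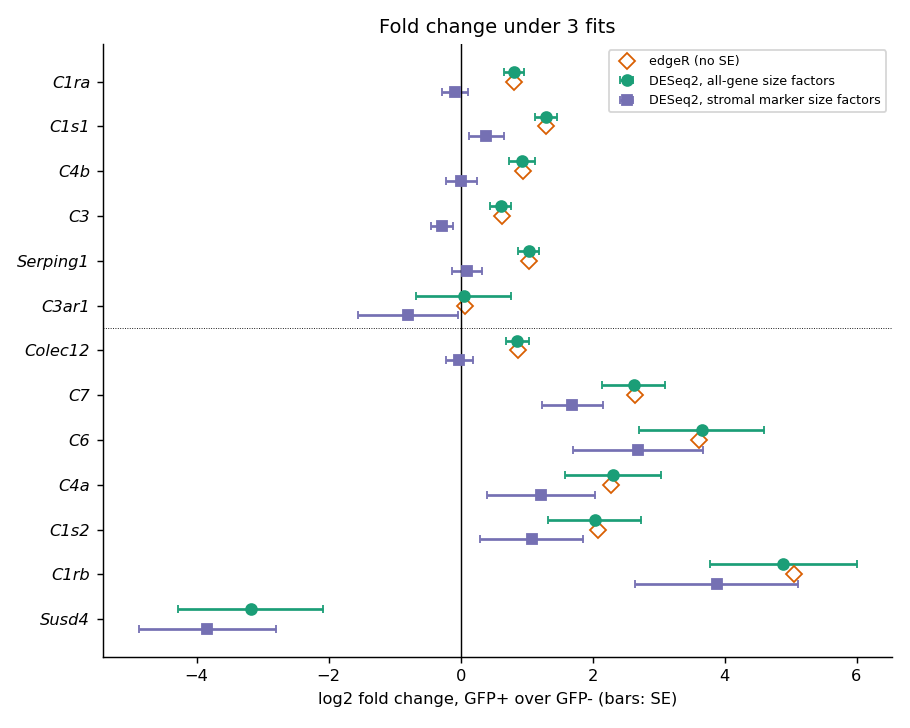
Log2 fold changes of GFP+ over GFP- cells are plotted for 6 of the 9 complement genes (above the dotted line) and for the other called pathway genes (below it), from DESeq2 with size factors from all genes (green circles, bars SE), edgeR (open orange diamonds) and DESeq2 with size factors from the 10 stromal markers (purple squares, bars SE). Under the stromal scaling all points move left, C1ra, C3, C3ar1 and Colec12 lie below 0 without being called, and C1rb, C6 and C7 stay above 0 and called.

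The wider complement list held 59 genes, 50 beside the 9, of which 35 of the 50 had an adjusted p. Of these, 6 were higher and 1 was lower in GFP+ cells by DESeq2 (against 4.66% and 4.76% of all genes), and 3 and 0 by edgeR. Over all 41 list genes with an adjusted p, the median log2 fold change was 0.59, and with the stromal scaling 3 of the 43 list genes with an adjusted p were called higher and 8 lower, where 0.536% and 41.0% of all genes were.

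Among the initiating genes, 5 of 13 tested were higher, the proteases C1ra and C1s1, their paralogs C1rb and C1s2, and Colec12, which encodes a membrane collectin. Of the 50-base windows of C1rb, 59.2% also occur in C1ra, and 26.9% of those of C1s2 in C1s1. C1ra and C1s1 had 32460 and 95790 reads in GFP+ libraries, so the paralogs need not be separate higher genes. Whether reads of C1ra and C1s1 were counted on the paralogs was not tested. Colec12 went from 1395 ± 207 to 2539 ± 308 normalised counts, a log2 fold change of 0.86 ± 0.17 that was -0.02 ± 0.20 under the stromal scaling (adjusted p = 0.949 in DESeq2). C1rb had 3 reads in GFP- and 164 in GFP+ libraries, a ratio of 27.5 per assigned read with an exact 95% counting interval from 9.25 to 135 (adjusted p 4.02e-04 in DESeq2 and 0.031 in edgeR). C1s2 was at 11.7 ± 8.9 and 57.0 ± 38.6 normalised counts, and its adjusted p of 0.0461 in DESeq2 was 0.196 in edgeR and 0.139 in DESeq2 once the replicate block was added. The C1q chains C1qa, C1qb and C1qc were not called, with log2 fold changes of -0.16, -0.65 and -0.14.

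C4a, which joins C3 and C4b among 3 higher genes of 4 tested at the C2, C4 and alternative pathway step, was at 11.96 ± 9.39 and 51.5 ± 16.4 normalised counts (adjusted p 0.0212 in DESeq2 and 0.181 in edgeR). Of its 50-base windows, 30.6% also occur in the far more abundant C4b, and whether reads of C4b were counted on it was not tested. Of the terminal pathway genes, whose products form the membrane pore, 2 of 4 tested were higher. C7 had 58.3, 45.2, 87.9 and 38.3 normalised counts in GFP- libraries and 339, 134, 597 and 235 in GFP+ libraries. Its groups did not overlap, and the log2 fold change of 2.62 ± 0.48 (adjusted p 2.98e-06 in DESeq2 and 0.0068 in edgeR) stayed at 1.69 under the stromal scaling (adjusted p = 0.00143 in DESeq2). C6 had 33 reads in GFP- and 463 in GFP+ libraries (adjusted p 0.00267 in DESeq2 and 0.0696 in edgeR).

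Of the soluble regulators, 1 of 6 tested was higher, Serping1, and 1 was lower. Susd4, a complement regulator of the sushi domain family, was called lower (log2 fold change -3.18 ± 1.10, adjusted p 0.0422 in DESeq2), but its 146.5, 75.3, 0 and 2.10 normalised counts in GFP- libraries overlapped the 2.78 to 9.62 of GFP+ libraries, so the call rested on GFP- replicates 1 and 2. Under the replicate block its log2 fold change was -1.55 and it was not called (adjusted p 0.488 in DESeq2). Not tested by edgeR after its filter, Susd4 had no adjusted p in DESeq2 without either of these libraries.

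No membrane regulator (8 tested) and no complement receptor (6 tested) was called by DESeq2 or edgeR, and with 4.66% of all genes higher and 4.76% lower, lists of this size read no differently from the background. Cd55, the decay-accelerating factor that protects host cells, was the most abundant membrane regulator at 3792 ± 597 and 3653 ± 692 normalised counts, with a log2 fold change of -0.06 ± 0.19. Cr1l, encoding the rodent regulator Crry, was at 300 ± 104 and 466 ± 76, with an adjusted p of 0.0824 in DESeq2.

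**Figure D5:**
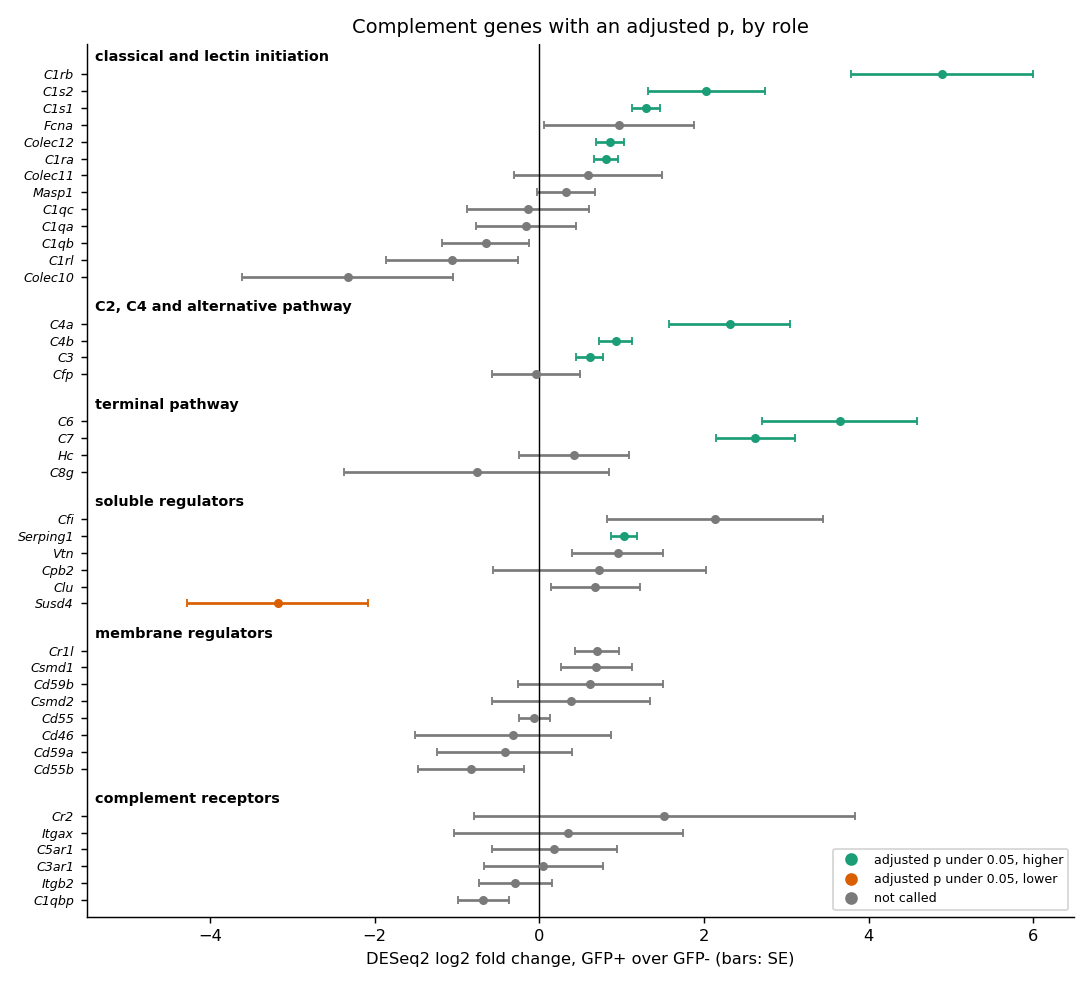
DESeq2 log2 fold changes of GFP+ over GFP- cells, with SE bars, are plotted for the 41 complement genes that had an adjusted p, grouped by role and ordered by size, with called genes in green (higher) or orange (lower) and the others in grey. The 11 higher genes lie in the first 4 groups, the single lower gene is Susd4, and the membrane regulators and receptors hold only grey points. Under the stromal scaling 3 list genes were called higher and 8 lower, against 0.536% and 41.0% of all genes, and C1ra, C3 and Colec12 had values below 0 that were not called.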

How the data were processed

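Total RNA of the sorted cells was converted to strand-specific libraries with a SMARTer Pico kit, and these were read on a NextSeq. Per the study's methods and the submitters' processing notes, the authors trimmed reads with cutadapt 3.4, mapped them to GRCm38 with STAR 2.7.3a and counted them by strand on Ensembl 92 genes with featureCounts 2.0.1. Stranded counting limits reads from antisense genes, of which Gm16567 overlaps C1s1 and Zbtb12 overlaps C2. The authors deposited a raw count per gene and library, with replicates kept apart, and only these counts were used. Their 8 columns of normalised values and their columns of means, fold changes, p-values and dispersions were left unused. The reads carry no molecular identifiers in these counts, so intervals and floors of 3 reads cover counting error only.

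In R 4.3.3, the 29043 genes with a count were fitted by DESeq2 1.42.0 on the group alone (Wald test, two-sided, independent filtering), the tool the study used, and by edgeR 4.0.16 (quasi-likelihood, TMM). Normalised counts are raw counts divided by DESeq2 size factors, and the level per kilobase divides them by merged exon length in GENCODE M21 (Ensembl 96), which held 99.66% of the table's identifiers. P-values were adjusted over all genes and called under 0.05. Other settings are given in the closing section, among them limma 3.58.1 (voom). The code was tested on simulated data. Named genes were the 9 members, each called gene of the wider list, Adam12, Ptprc, Adgre1, Adipoq and the 3 genes most like C3, Serping1, Cfd and C3ar1. A gene of the list as first written is not reported here and was left out of its counts. The C1q chains, Cd55, Cr1l, Plin1, Plin4, Lep and Lipe were named after their values were seen. Of 2 rows named Itgam, the row with that name in the annotation was used. Members, gene lists and markers were chosen with earlier results of these data known, so no list was tested as a set. No replicate pair of a group agreed within sampling noise, and the labels give no batch or date.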

Additional observations from a re-analysis of the deposited data

Results flagged for a closer look

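A library was flagged when its distance from the nearest other exceeded, as a share of the group's range, Dixon's 95% critical value. Over 36 groups of 4 libraries, 3 held such a library, and chance alone flags about 1 in 20 groups. The groups covered the members, the other called genes of the wider list and 3 ratios of members. The C1q chains, Cd55 and Cr1l were not screened in this way. C1rb had 49.99 normalised counts in GFP+ replicate 1, against 17.6 to 20.5 in the other GFP+ libraries. Colec12 had 2995 in the same library, against 2325 to 2433. Cfb had 11.0 in GFP- replicate 3, against 0 to 0.717, a value that stands for 1 read in the shallowest library.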

How the results depend on the processing

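The 5 complement genes (C1ra, C1s1, C3, C4b and Serping1) were called in each of 17 other settings: edgeR, limma voom, TMM factors, size factors restricted to genes averaging 100 counts or more, a minimum mean of 10 counts, the filters on low means and on Cook's distance switched off in turn, the replicate block, an adjusted p under 0.01, and each of 8 libraries left out. Their log2 fold changes ranged from 0.54 (C3) to 1.40 (C1s1), and the largest adjusted p was 0.0407 (C3, edgeR). C3ar1 was called in none, from -0.69 to 0.47. With size factors from the 10 stromal markers, chosen after seeing the data, 0 of the 9 genes were called, C1ra (-0.09), C3 (-0.28) and Colec12 (-0.02) had values below 0 that were not called, and 6818 genes in all were called; without GFP- replicate 4 as well, 1 complement gene, 7 of the wider list and 4959 genes were called, and C3 stood at -0.21.

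Against 1439 genes called in all, edgeR called 732 and an adjusted p under 0.01 called 844, while leaving out a library gave 968 to 1825. For the wider list, 12 calls became 8 to 12 under the settings that kept all libraries and 9 to 15 with a library left out. C4a lost its call in 7 of 16 fits (adjusted p up to 0.160 without GFP- replicate 2 or any 1 GFP+ library), C1s2 in 11 (up to 0.327 without GFP- replicates 1, 2 or 4 or GFP+ replicates 2, 3 or 4), C6 in 2 (edgeR and voom), and Susd4 in 6 of 12 that gave it an adjusted p (up to 0.106 without any 1 GFP+ library, and 0.488 with the replicate block, where its log2 fold change was -1.55). With the replicate block, 5 of the 9 genes, 10 of the list and 1470 genes were called. Replicate numbers are in the labels of both groups, but deviations of same-numbered libraries correlated at 0.05, -0.158, -0.122 and 0.262, which does not settle whether the numbers pair the libraries. The cause of these shifts was not tested. Few reads limit C2, Cfb and Cfd (adjusted p 0.998 without the filter on low means), as does the overlap of Gm20547 for C2 and Cfb, and the spread between libraries limits C3ar1.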

Other observations

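By correlation of log2(normalised count + 1) over the 8 libraries after removal of each group's mean, among 8811 or 8812 genes with a mean of at least 100 normalised counts, the genes most like C3 were Glis2 (r = 0.981), Nhlrc2 (0.962) and Foxk1 (0.956). Those most like Serping1 were Rfx5 (0.988), Lepr (0.959) and Psmf1 (0.956), and those most like C3ar1 were Dnajc21 (0.994), Alcam (0.99) and Tec (0.99). For Cfd, which had reads in only 2 libraries, they were Gpd2 (0.993), Eml4 (0.976) and Ppm1h (0.939). The 8 points share library and depth, and the highest of so many correlations over 8 points are high in any data, so these are descriptions. Among the 15 pairs of C1ra, C1s1, C3, C4b, Serping1 and C3ar1, the only ones compared, the closest in this measure was C4b with Serping1 (0.76), and C3 with C3ar1 had the most negative value (-0.766).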
